A study of Homo sapiens with 8 samples.

Results

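The account covers 10 genes for surface proteins with which a tumour cell can act on immune cells: NT5E, CD274, PDCD1LG2, CD276, PVR, NECTIN2, CD47, LGALS9, VTCN1 and TNFSF9. They were chosen by symbol, after Ensembl identifiers were matched to gene names, from a count table of 58302 genes. All 10 were found, and 9 of the 10 were among the 18976 genes that passed the filter on low counts; VTCN1 did not pass. T24, an established line of human bladder cancer, had been grown as tumours in mice, and messenger RNA of the tumours was sequenced. The 4 DDR1 libraries came from tumours of T24 cells made to express extra DDR1, a receptor tyrosine kinase activated by collagen, and the 4 control libraries from tumours of T24 cells labelled control. The vector, the number of cell clones, and the strain, age and immune cells of the mice were not stated in the labels. Replicate numbers follow accession order and only name a library. All 4 DDR1 titles name lane 8, control replicates 1 and 2 name lane 7, and control replicates 3 and 4 name no lane, so lane and condition cannot be told apart. DDR1 replicates 2, 3 and 4 share a title prefix, as do control replicates 3 and 4. Libraries of a shared prefix carry different codes after it, and what these codes stand for was not established. No label says that the libraries came from separate animals, so the spread behind each p-value may not be that between animals.

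Immune checkpoints are receptor and ligand pairs that restrain, or in a few cases boost, lymphocytes and phagocytes. The ligands of PD-1, encoded by CD274 (PD-L1) and PDCD1LG2 (PD-L2), restrain T cells, and CD276 (B7-H3) and VTCN1 (B7-H4) belong to the same B7 family. PVR (CD155) and NECTIN2 (CD112) bind the receptors TIGIT and CD226 on T and natural killer cells, CD47 binds SIRPA on phagocytes, galectin 9 from LGALS9 binds TIM-3, and TNFSF9 (4-1BBL) stimulates T cells through 4-1BB. NT5E encodes CD73, the surface enzyme that turns AMP into adenosine, which restrains lymphocytes through its own receptors. Interferon gamma is the best known inducer of CD274. Blockade of PD-1 or PD-L1 is in clinical use in bladder cancer.

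The libraries held between 13716347 and 32271084 counts, which gave each member but VTCN1 and PDCD1LG2 at least 38 counts in every library. Levels are CPM, counts divided by library size after scaling by the trimmed mean of M values (TMM), a method that corrects for a few very abundant genes. DDR1 itself had 159, 343, 426 and 808 CPM in DDR1 replicates 1 to 4, against 138, 110, 210 and 149 CPM in control replicates 1 to 4. The library labelled DDR1 replicate 1 therefore lay inside the control range, and the members' fold changes, and the main list counts and correlations, are given with and without it. Keratins of an epithelial tumour were abundant in every library, with KRT5 between 706 and 4005 CPM, while the uroplakins UPK2 and UPK3A, which mark mature urothelium, reached at most 1.83 and 0.208 CPM. Libraries differed in other genes of that list, named after their values were seen. The epithelial genes CDH1 and EPCAM ran from 3.64 to 166 and from 6.70 to 85.9 CPM. The mesenchymal genes VIM and CDH2 ran from 150 to 1094 and from 20.5 to 145 CPM. The leukocyte gene PTPRC reached at most 0.167 CPM and the T cell gene CD3E at most 0.5001 CPM, and PDCD1, which encodes PD-1, was above 0 in 1 library. Reads were placed on human genes, and any removal of mouse reads is not stated in the labels. Host cells of these tumours are mouse cells, so low levels of human leukocyte genes do not measure host immune cells.

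Set on a scale that allows genes to be compared, CPM per kilobase of exon, NT5E stood highest with 51.9 ± 17.5 (SD, n = 8 libraries). It was followed by CD47 at 13.2 ± 3.27, CD276 at 12.9 ± 3.96 and PVR at 12.1 ± 2.71 CPM per kilobase. NECTIN2 had 7.63 ± 2.05, TNFSF9 2.75 ± 0.872, CD274 1.90 ± 1.32, LGALS9 1.34 ± 0.610, PDCD1LG2 1.11 ± 0.811 and VTCN1 0.163 ± 0.227 CPM per kilobase. With summed exons as the length, the range of NT5E overlapped that of no other member. CD47 was above CD276 in 4 of 8 libraries, CD276 above PVR in 5 of 8, and CD47 above PVR in 4 of 8, so these 3 could not be put in order. CD274 was above PDCD1LG2 in 8 of 8 libraries, while LGALS9 was below CD274 in 5 of 8 and above PDCD1LG2 in 5 of 8. With the longest transcript as the length, CD276 stood at 20.7 and above CD47 at 16.0, and LGALS9 at 2.46 stood above CD274 at 2.15 CPM per kilobase. On that scale the ranges of NT5E and CD276 overlapped, and NT5E was above CD276 in 8 of 8 libraries.

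**Figure D1:**
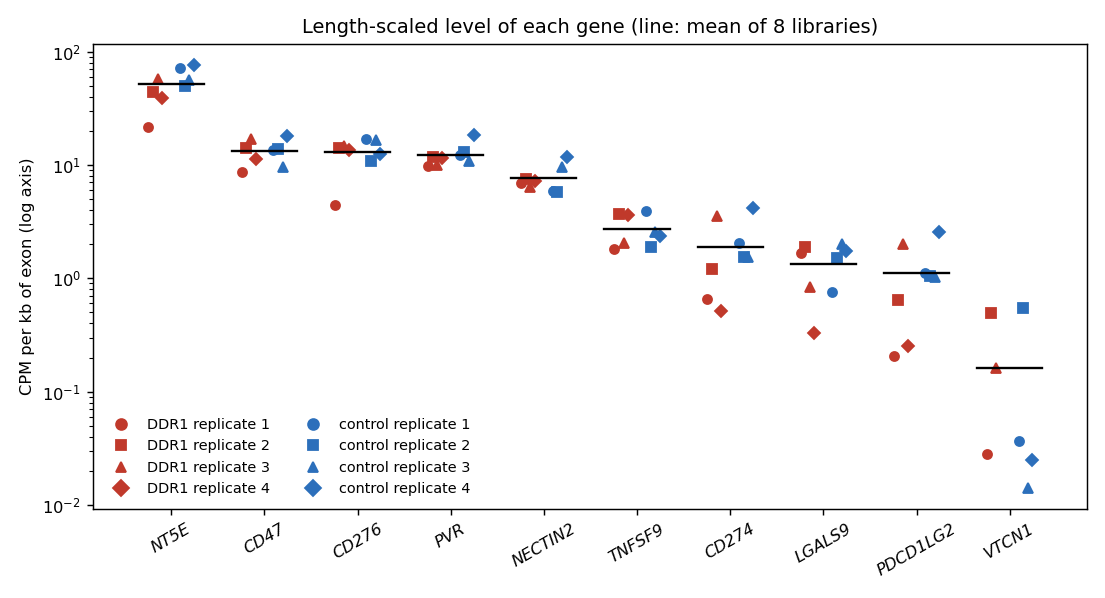
Level of each of the 10 genes in CPM per kilobase of summed exons, on a log axis, with red symbols for the 4 DDR1 libraries, blue symbols for the 4 control libraries and a line at the mean of the 8. With this length NT5E lies above all others, VTCN1 has the lowest mean, and the library in which VTCN1 had 0 counts is not drawn.

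NT5E (ENSG00000135318, GRCh38 chromosome 6, 85449584 to 85495791, plus strand), the adenosine-forming enzyme, had 97.5, 201, 261 and 178 CPM in DDR1 replicates 1 to 4, against 323, 226, 253 and 344 CPM in control replicates 1 to 4. Of the DDR1 libraries 3 lay below every control, and DDR1 replicate 3 lay within the control range. The means were 184 ± 67.7 CPM in DDR1 libraries and 286 ± 56.3 CPM in controls (SD, n = 4 each). On the log2 scale the fitted fold change was -0.63 (standard error 0.29, 95% interval -1.27 to 0.0046). It did not pass in edgeR's quasi-likelihood test (unadjusted p = 0.0514, adjusted p = 0.9999), nor when log2 CPM was permuted between groups (exact two-sided p = 0.0857; 70 orderings can give no p below 0.0286). Without the library labelled DDR1 replicate 1 it was -0.42 (edgeR unadjusted p = 0.0854). In whole tumours, fewer cells that express a gene and less of its RNA per cell cannot be told apart. Its promoter is shown because it is the most abundant member; it spans chr6:85449833-85450132 (GRCh38.p14, plus strand, RefSeq) and held none of the motifs searched below:
NT5E: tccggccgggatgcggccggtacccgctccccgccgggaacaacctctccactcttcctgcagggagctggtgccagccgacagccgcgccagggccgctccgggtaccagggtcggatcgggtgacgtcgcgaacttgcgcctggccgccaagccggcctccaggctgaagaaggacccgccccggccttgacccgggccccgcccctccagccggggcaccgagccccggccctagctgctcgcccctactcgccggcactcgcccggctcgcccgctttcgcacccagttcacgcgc

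Around NT5E, a list of 36 genes for extracellular ATP, NAD and adenosine held 25 tested genes, of which 13 were higher and 12 lower in the DDR1 group, with a median log2 fold change of 0.03, against -0.0031 over all genes tested. ENTPD1 (CD39), which makes the AMP that CD73 uses, had 6.31, 5.90, 5.73 and 2.94 CPM in DDR1 libraries against 6.91, 5.50, 5.41 and 7.07 CPM in controls. ADORA2B, a low-affinity adenosine receptor, ranged from 30.8 to 60.1 CPM in DDR1 libraries and from 39.8 to 56.5 CPM in controls, and ADORA2A did not pass the filter. These 3 were named for their roles after their values were seen. ADK, which turns adenosine back into AMP inside the cell, had 68.1, 49.7, 51.3 and 93.3 CPM in DDR1 libraries, against 36.4, 46.6, 46.1 and 36.8 CPM in controls. The groups did not overlap for ADK, as for 2.4% of all genes tested, and its log2 fold change of 0.66 (standard error 0.22) did not pass (edgeR unadjusted p = 0.0149, adjusted p = 0.9999). It was the 1 gene of this list at an unadjusted p under 0.05, where 4.17% of all genes tested stood.

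CD274 (ENSG00000120217, chromosome 9, 5450503 to 5470566, plus strand), which encodes PD-L1, had 2.70, 4.96, 14.5 and 2.10 CPM in DDR1 replicates 1 to 4, against 8.40, 6.38, 6.27 and 17.3 CPM in control replicates 1 to 4. DDR1 replicates 1, 2 and 4 lay below every control, while DDR1 replicate 3 lay above 3 of the 4 controls. Its log2 fold change of -0.65 (standard error 0.61, 95% interval -2.03 to 0.72) did not pass (edgeR unadjusted p = 0.313, adjusted p = 0.9999). A single library moved this value by far: it was -1.55 without DDR1 replicate 3 (edgeR unadjusted p = 0.01026), -0.20 without control replicate 4 and -0.41 when the library labelled DDR1 replicate 1 was left out. Its RefSeq promoter is shown because CD274 is the member best known to respond to interferon. It spans chr9:5450292-5450591 (GRCh38.p14, plus strand, 250 bases before to 50 after the start), and capitals mark motif matches:
CD274: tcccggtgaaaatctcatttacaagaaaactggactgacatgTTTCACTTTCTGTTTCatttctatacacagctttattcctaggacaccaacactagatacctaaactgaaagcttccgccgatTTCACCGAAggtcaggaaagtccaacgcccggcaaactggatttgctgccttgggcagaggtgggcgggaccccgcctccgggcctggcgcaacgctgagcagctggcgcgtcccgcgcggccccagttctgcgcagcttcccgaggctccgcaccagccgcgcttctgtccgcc

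The promoters of 9 of the 10 members, all but PDCD1LG2, were matched in the RefSeq table and searched on both strands for the interferon gamma activated site (TTCNNNGAA), the core of the interferon stimulated response element (GAAA and again GAAA, with a pair of any bases between), an NF-kB site (GGGA and TCC, with any 3 bases between) and the AP-1 site (TGANTCA). CD274 held 2 response element cores, which began at -208 and -202 from the start and overlap each other, and 1 interferon gamma activated site that began at -125. LGALS9 and TNFSF9 held 1 response element core each, and VTCN1 held 1 AP-1 site. The other 5 matched members, NT5E, CD276, PVR, NECTIN2 and CD47, held none of these letters, and no member held the NF-kB letters in this window. Of 35116 promoters in the table, 7.66% held the activated site, 3.57% the response element core, 5.07% the NF-kB site and 7.71% the AP-1 site. The windows were set on RefSeq starts. For NT5E, CD276, CD47 and LGALS9 they did not reach the outermost start in GENCODE, which was not searched. A match describes letters and is not evidence of binding.

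PDCD1LG2 (ENSG00000197646, chromosome 9, 5510570 to 5571254, plus strand), which encodes PD-L2, lies 40003 bases beyond CD274. It had 0.488, 1.51, 4.72 and 0.599 CPM in DDR1 libraries, against 2.65, 2.50, 2.45 and 6.004 CPM in controls. The same 3 DDR1 libraries as for CD274 lay below every control, and DDR1 replicate 3 lay above 3 of the 4 controls. PDCD1LG2 was lower by a fitted log2 fold change of -0.89 (standard error 0.69; edgeR unadjusted p = 0.232, adjusted p = 0.9999). It was -1.94 without DDR1 replicate 3 (edgeR unadjusted p = 0.006255), -0.46 without control replicate 4 and -0.57 when the library labelled DDR1 replicate 1 was left out. Other tested protein-coding genes within 250 kilobases varied less: the highest library over the lowest was 1.70-fold for PLGRKT, 1.97-fold for RIC1 and 2.21-fold for ERMP1, against 8.23-fold for CD274 and 12.3-fold for PDCD1LG2. Pearson's r of their log2 CPM with that of CD274 was 0.18 for PLGRKT, 0.47 for RIC1 and 0.70 for ERMP1, against 0.977 for PDCD1LG2.

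CD276 (ENSG00000103855, chromosome 15, 73683966 to 73714518, plus strand), which encodes B7-H3, had 24.6, 78.6, 81.5 and 75.3 CPM in DDR1 libraries, against 93.2, 59.8, 91.5 and 69.7 CPM in controls. The library labelled DDR1 replicate 1 stood apart, and the other DDR1 libraries lay inside the control range. For CD276 the log2 fold change was -0.27 (standard error 0.34; edgeR unadjusted p = 0.445), and it was -0.0016 without that library (edgeR unadjusted p = 0.993). VTCN1 (ENSG00000134258, chromosome 1, 117143587 to 117210960, minus strand), which encodes B7-H4, had 3, 47, 12 and 0 counts in DDR1 libraries and 2, 40, 1 and 1 counts in controls. It was at 1.48 CPM in DDR1 replicate 2 and 1.67 CPM in control replicate 2, and at 0.485 CPM or less in each other library. Without the library labelled DDR1 replicate 1 it passed the filter, with a log2 fold change of 0.43 (edgeR unadjusted p = 0.745). The 0 counts in DDR1 replicate 4 allow up to 0.150 CPM at 3 counts, a limit that covers counting error only. A list of 26 other B7 and related ligands held 19 tested genes, 10 higher and 9 lower, with a median log2 fold change of 0.06. LGALS3, which encodes galectin 3, was the 1 gene of that list at an unadjusted p under 0.05, with 57.7 ± 10.6 CPM in DDR1 libraries and 28.95 ± 3.41 CPM in controls (SD, n = 4 each; edgeR adjusted p = 0.9999).

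PVR (ENSG00000073008, chromosome 19, 44643798 to 44663583, plus strand), a ligand of TIGIT and CD226, had 34.2, 41.3, 35.2 and 40.5 CPM in DDR1 libraries, against 42.9, 45.4, 37.98 and 64.4 CPM in controls. The groups overlapped through control replicate 3. For PVR the log2 fold change was -0.33 (standard error 0.19; edgeR unadjusted p = 0.105, adjusted p = 0.9999). Without control replicate 4, which had the highest value, it was -0.15, and it was -0.29 when the library labelled DDR1 replicate 1 was left out. PVR shares exon sequence on its own strand with CEACAM19, which had 7 to 48 counts per library against 776 to 1308 for PVR. NECTIN2 (ENSG00000130202, chromosome 19, 44846175 to 44889228, plus strand), which binds TIGIT more weakly, had 26.0, 28.3, 23.7 and 27.2 CPM in DDR1 libraries, against 21.9, 21.6, 35.9 and 43.9 CPM in controls. The 2 controls of lane 7 lay below every DDR1 library, and the 2 controls with no lane lay above every DDR1 library. Over all libraries the log2 fold change was -0.23 (standard error 0.24; edgeR unadjusted p = 0.374), and it was -0.22 when the library labelled DDR1 replicate 1 was left out. The direction depended on which controls were used: it was -0.57 without the lane 7 controls (edgeR unadjusted p = 0.01807) and 0.28 with the lane 7 controls alone (edgeR unadjusted p = 0.166). Of 8 other nectin and nectin-like genes 6 were tested, 2 higher and 4 lower, and the median log2 fold change was -0.07. CADM3, a nectin-like adhesion gene and the 1 gene of that list at an unadjusted p under 0.05 (edgeR unadjusted p = 0.0291, adjusted p = 0.9999), had 55.1 CPM in DDR1 replicate 3, 8.37 CPM in DDR1 replicate 2, and at most 1.52 CPM in the other libraries.

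CD47 (ENSG00000196776, chromosome 3, 108043094 to 108091862, minus strand), the ligand that restrains phagocytes, had 70.8, 117, 138 and 92.2 CPM in DDR1 libraries, against 112, 113, 79.4 and 148 CPM in controls. The groups overlapped over most of their range. Its log2 fold change of -0.12 (standard error 0.25, 95% interval -0.67 to 0.44) did not pass (edgeR unadjusted p = 0.653). It was 0.03 without the library labelled DDR1 replicate 1. Of 13 partners and modifiers of CD47 11 were tested, 6 higher and 5 lower, with 0 at an unadjusted p under 0.05 in edgeR. SIRPA, the receptor of CD47, had 5.16, 27.3, 57.7 and 5.94 CPM in DDR1 libraries, against 13.5, 23.0, 22.3 and 50.8 CPM in controls. THBS1, the secreted matrix protein thrombospondin 1 that also binds CD47, had 25.9, 887, 3320 and 113 CPM in DDR1 libraries, against 959, 655, 193 and 1225 CPM in controls. Both were named for their roles after their values were seen.

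LGALS9 (ENSG00000168961, chromosome 17, 27629798 to 27649560, plus strand), which encodes galectin 9, had 9.46, 10.7, 4.81 and 1.90 CPM in DDR1 libraries, against 4.37, 8.63, 11.5 and 9.88 CPM in controls. The groups overlapped, with DDR1 replicate 4 lowest and control replicate 3 highest. Its log2 fold change was -0.35 (standard error 0.50; edgeR unadjusted p = 0.503), or -0.56 when the library labelled DDR1 replicate 1 was left out. A second gene model, AC015688.4, shares its exons and strand and took 0 to 34 counts per library, so its values are uncertain. The near-identical copies LGALS9B and LGALS9C reached at most 0.215 and 0.167 CPM. Its promoter, chr17:27630938-27631237 (GRCh38.p14, plus strand, RefSeq), is shown as the second one of an interferon-responsive member, with its response element core in capitals:
LGALS9: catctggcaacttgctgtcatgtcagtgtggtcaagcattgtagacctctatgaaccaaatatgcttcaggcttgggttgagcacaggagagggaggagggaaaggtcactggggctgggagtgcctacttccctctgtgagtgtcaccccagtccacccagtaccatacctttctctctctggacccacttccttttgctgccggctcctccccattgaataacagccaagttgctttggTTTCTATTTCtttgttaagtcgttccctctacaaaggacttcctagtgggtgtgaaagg

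TNFSF9 (ENSG00000125657, chromosome 19, 6530999 to 6535928, plus strand), the co-stimulatory ligand, had 3.04, 6.19, 3.43 and 5.99 CPM in DDR1 libraries, against 6.58, 3.17, 4.25 and 3.95 CPM in controls. Each group held both high and low libraries. TNFSF9 had a log2 fold change of 0.05 (standard error 0.34; edgeR unadjusted p = 0.876), or 0.21 when the library labelled DDR1 replicate 1 was left out. Of 16 other TNF superfamily ligands 11 were tested, 4 higher and 7 lower, with a median log2 fold change of -0.87. That median is the value of TNFSF4, whose mean was 0.712 CPM. The most abundant by mean, TNFSF10, CD70 and TNFSF15, had 0.29, -0.08 and 0.35. The inflammatory cytokine TNF had 3.41, 2.68, 8.40 and 7.33 CPM in DDR1 libraries, against 21.1, 7.04, 7.86 and 18.1 CPM in controls (edgeR unadjusted p = 0.0230, adjusted p = 0.9999). LTB was the other gene of that list at an unadjusted p under 0.05, with 0.464 ± 0.287 CPM in DDR1 libraries and 0.953 ± 0.201 CPM in controls (SD, n = 4 each). These were 2 of 11 tested, against 4.17% of all genes tested under that value.

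**Figure D2:**
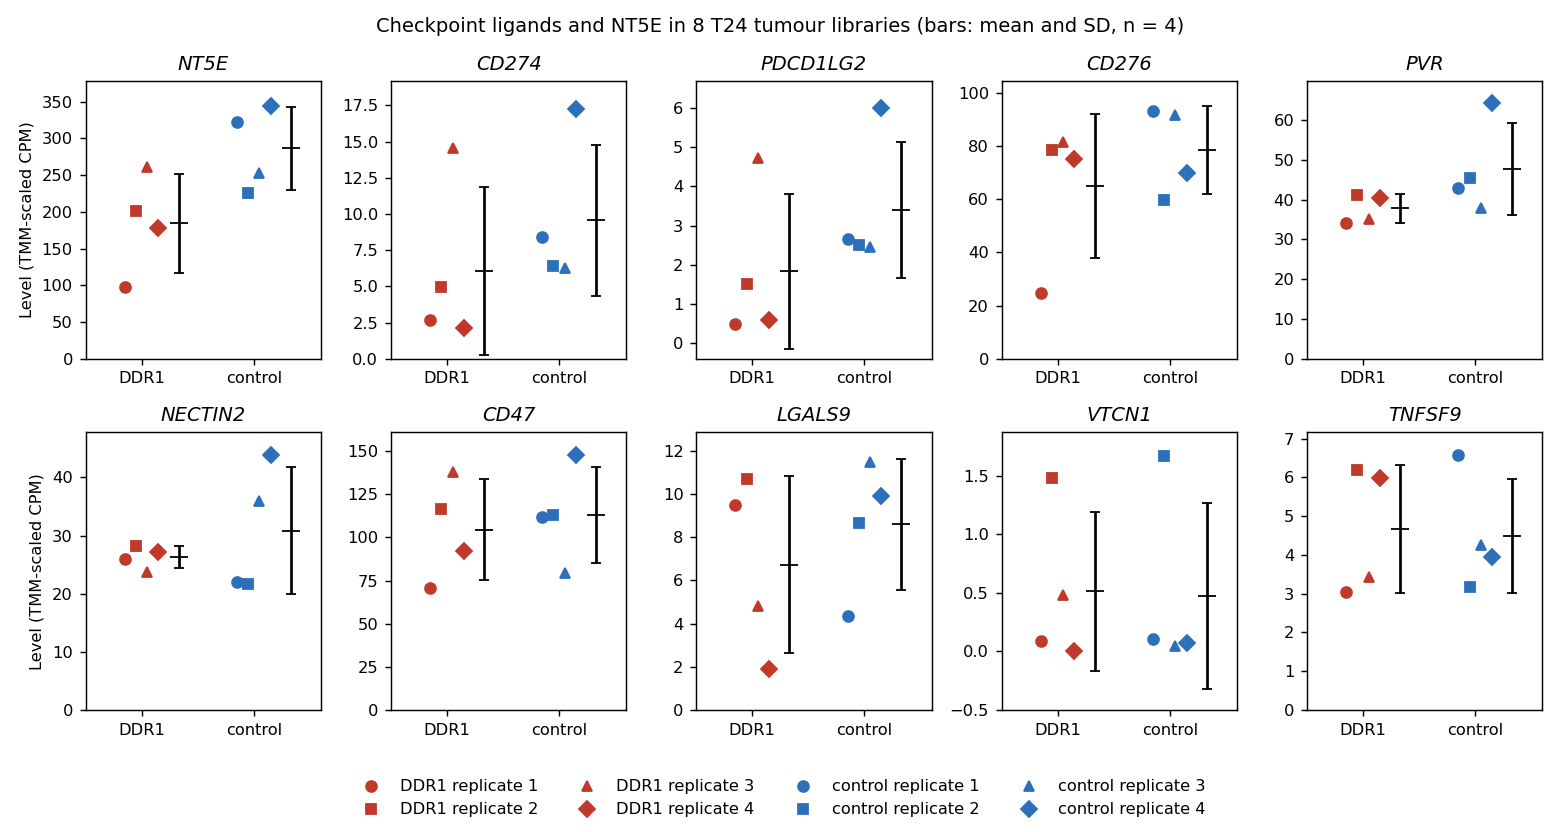
Level of each of the 10 genes in TMM-scaled CPM, with the 4 DDR1 libraries in red on the left of each panel, the 4 control libraries in blue on the right, and bars for the mean and SD of each group. The groups overlap for every gene, the library labelled DDR1 replicate 1 is lowest for 6 of the 9 tested genes, and control replicate 4 is highest for 6 of them.

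The comparison that the design implies is DDR1 against control tumours. Of the 9 tested members 0 passed edgeR's quasi-likelihood test at an adjusted p under 0.05, as did 0% of the 18976 genes tested. DESeq2, limma-voom and limma-trend also called 0 members; DESeq2 called 15 genes in all (0.079%). At an unadjusted p under 0.05 stood 0 members in edgeR, against 4.17% of all genes tested (2.24% lower and 1.93% higher in the DDR1 group), and the groups overlapped for all 10 members. Fitted values were lower in the DDR1 group for 8 of 9 members, against 50.5% of all genes tested, and the median log2 fold change of the 9 was -0.33. Members that share libraries are not replicates of the condition, so this count is a description. Without the library labelled DDR1 replicate 1, when VTCN1 also passed the filter, 7 of 10 members were lower and 3 higher, against 51.5% of all genes lower. Their median was then -0.25, and 0 stood at an unadjusted p under 0.05 in edgeR, against 4.76% of all genes. The 95% intervals of all 9 members included 0, the narrowest being that of PVR, from -0.75 to 0.08. The count at an unadjusted p under 0.05 was 3 without DDR1 replicate 3 (NT5E, CD274 and PDCD1LG2), where 5.74% of all genes stood under that value, and it was 1, NT5E, with DESeq2 (4.84%), limma-voom (3.88%), limma-trend (4.32%), no filter on low counts (3.69%) and without control replicate 2 (6.26%). It was also 1 without control replicate 3 (PVR, 4.99%) and without the lane 7 controls (NECTIN2, 5.62%).

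**Figure D3:**
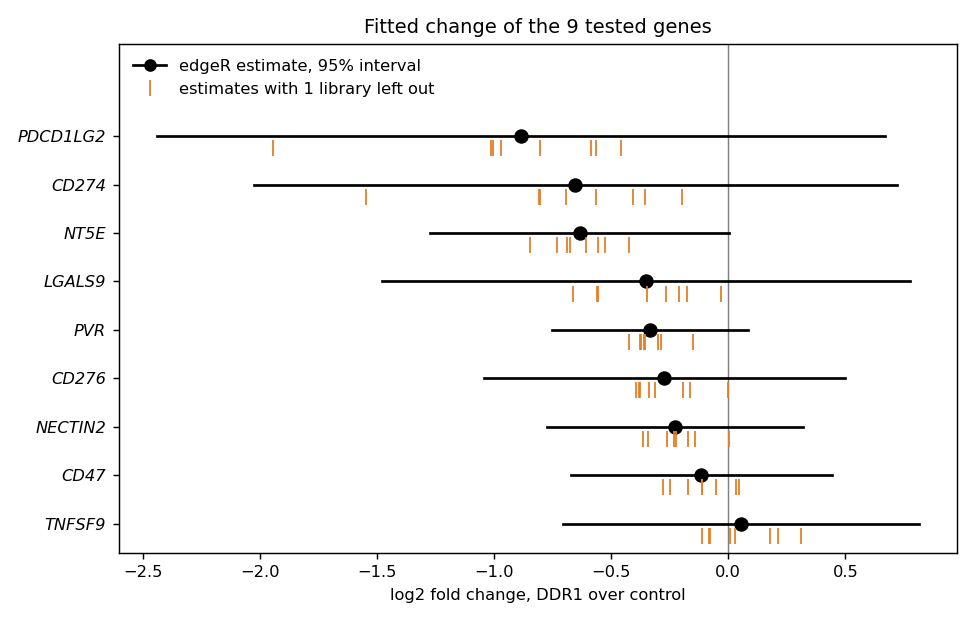
Log2 fold change of the DDR1 group over control for the 9 tested members (black points, edgeR) with 95% intervals, and the 8 estimates made with 1 library left out (orange ticks). All intervals include 0, and the ticks of PDCD1LG2 and CD274 spread widest, from -1.94 to -0.46 and from -1.55 to -0.20.

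The members differed in how far they varied between libraries. The highest library exceeded the lowest by 1.88-fold for PVR, 2.03-fold for NECTIN2, 2.09-fold for CD47, 3.53-fold for NT5E, 6.05-fold for LGALS9 and 12.3-fold for PDCD1LG2. The summed level of the 10 members was 269, 491, 568 and 424 CPM in DDR1 replicates 1 to 4, against 615, 488, 522 and 707 CPM in control replicates 1 to 4. The library labelled DDR1 replicate 1 was lowest of the 8 for NT5E, PDCD1LG2, CD276, PVR, CD47 and TNFSF9. Control replicate 4, which is also the shallowest library, was highest for NT5E, CD274, PDCD1LG2, PVR, NECTIN2 and CD47.

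Across the 8 libraries, all 36 pairs of tested members were compared by log2 CPM, with exact two-sided permutation p-values adjusted over the pairs. CD274 and PDCD1LG2 varied together most closely, with Pearson's r of 0.977 (permutation p = 0.000446, adjusted p = 0.0161) and Spearman's rho of 0.976 (permutation p = 0.000397, adjusted p = 0.0143). Without the 2 libraries farthest from the median of CD274 r was 0.963, and with group means removed it was 0.9749. NT5E followed PDCD1LG2 with r of 0.880 (permutation p = 0.00218, adjusted p = 0.0393) and rho of 0.952 (permutation p = 0.00114, adjusted p = 0.0205), and r was 0.768 without the 2 farthest libraries. NT5E and CD274 passed by rho, 0.929 (permutation p = 0.00223, adjusted p = 0.0268), and not by r, 0.804 (permutation p = 0.0119, adjusted p = 0.143); r was 0.778 without the 2 farthest libraries. The other 33 pairs did not pass by either measure. For CD274 and PDCD1LG2 r stayed between 0.969 and 0.990 with any 1 library left out, but adjusted permutation p was then above 0.05 in 4 of 8 runs. It was 0.129 without DDR1 replicate 2, 0.0571 without control replicate 2, 0.0571 without control replicate 3 and 0.1 without control replicate 4. The number of pairs that passed by r was 0 in these 4 runs, and it was 1, CD274 with PDCD1LG2, without the library labelled DDR1 replicate 1 (adjusted permutation p = 0.0143). Libraries that share a title prefix may not be independent, and each lane held only 1 condition and at most 4 libraries, so no value within a lane was computed. The summed fibroblast markers were also low in DDR1 replicates 1 and 4 and highest in control replicate 4: 17.1, 73.9, 79.1 and 16.4 CPM in DDR1 libraries, against 107, 50.4, 26.6 and 134 CPM in controls. Of that list 7 of 10 genes passed the filter and 0 were at 0 in every library. The other 3, COL1A2, DCN and LUM, stayed under 1 CPM in every library, so the sum rests on the rest of the list. Which cells expressed the listed genes was not established, and their part in the relation was not tested. THY1, its most abundant gene, reached 55.2 CPM.

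**Figure D4:**
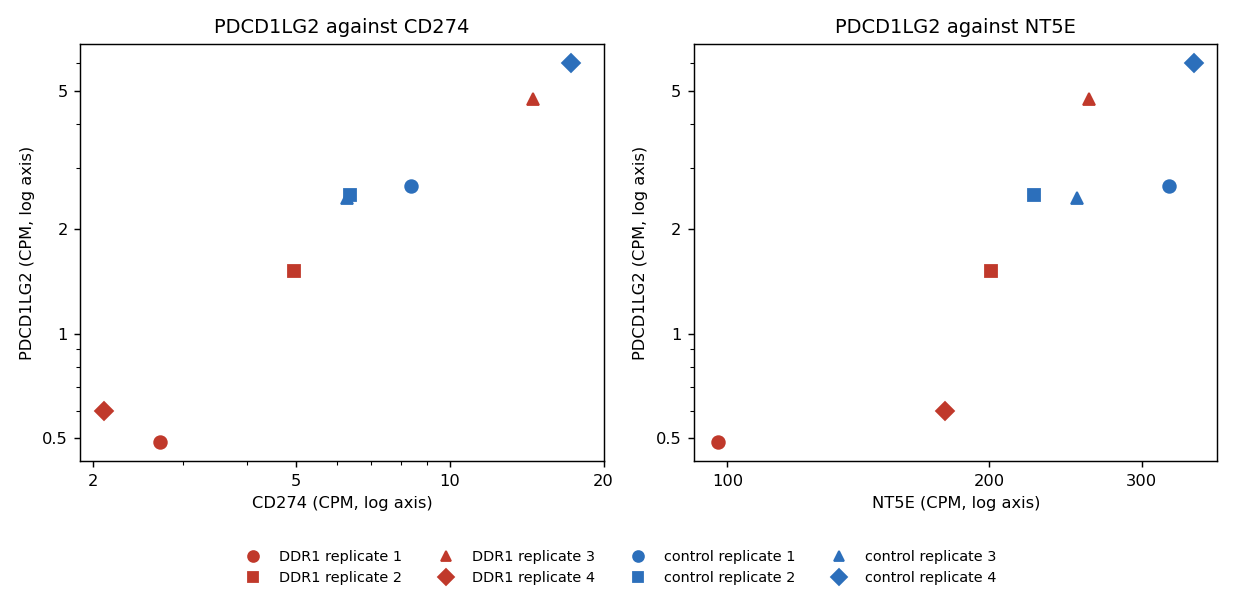
PDCD1LG2 against CD274 (left) and against NT5E (right), in TMM-scaled CPM on log axes, with red symbols for DDR1 libraries and blue symbols for control libraries. DDR1 replicates 1 and 4 lie at the low end and DDR1 replicate 3 and control replicate 4 at the high end of both ligands.

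Likeness to a member was measured as the root mean square difference of mean-centred log2 CPM over 8 libraries, among 11894 tested genes with a mean of 5 CPM or more. The genes nearest to NT5E were LAMB1, a laminin chain (0.185), PEA15 (0.187) and the pseudogene RBM17P2 (0.198), where the spread of NT5E itself was 0.537. Nearest to CD274 were ZNF697 (0.221), the lysosomal protease gene CTSB (0.247) and DSE (0.267), where the spread of CD274 was 0.977. PDCD1LG2, whose mean was under 5 CPM, would have stood in place 5 of all 18975 other tested genes for CD274, with 0.280. Nearest to CD276 were GSN-AS1 (0.155), CDCP1 (0.184) and PLEKHG1 (0.206), where the spread of CD276 was 0.582.

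Because the library labelled DDR1 replicate 1 did not carry a raised level of DDR1, each of the 10 members was also set against the measured level of DDR1 over the 8 libraries. None passed after adjustment over the 10 (smallest adjusted exact permutation p = 0.826 for Pearson's r). NT5E had r of -0.17 (permutation p = 0.628) and rho of -0.36 (permutation p = 0.389), and r was -0.14 without the 2 libraries farthest from the median of DDR1. Without the library labelled DDR1 replicate 1 it was -0.66 (permutation p = 0.107), and with group means removed it was 0.57. CD276 had r of 0.28 over all libraries (permutation p = 0.565) and 0.80 with group means removed. In the library labelled DDR1 replicate 1 both CD276 and DDR1 were lowest of the DDR1 group. Without that library, and with group means kept, r of CD276 was 0.19 (permutation p = 0.693). Over all libraries LGALS9 had the r farthest from 0, -0.64 (permutation p = 0.135), with rho of -0.12 (permutation p = 0.793). It rested on DDR1 replicate 4, since r was -0.11 without that library, while leaving out DDR1 replicate 3 or the library labelled DDR1 replicate 1 gave -0.62 each; without replicates 3 and 4 together it was 0.47.

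In the remaining lists 0 genes were called by edgeR. Interferon response genes were lower in the DDR1 group for 32 of 33 tested, against 50.5% of all genes tested, with a median log2 fold change of -0.73. At an unadjusted p under 0.05 stood 2 of them, OASL and IRF7, against 4.17% of all genes, and 10 of 33 without the library labelled DDR1 replicate 1, against 4.76%. Their summed level was 4126, 2937, 3436 and 910 CPM in DDR1 libraries, against 4031, 2945, 6769 and 4961 CPM in controls, and its part in the members' values was not tested. CD274 and LGALS9 were both lowest in DDR1 replicate 4, which had the lowest sum. In control replicate 3, which had the highest sum, LGALS9 was at its highest, 11.5 CPM, and CD274 was at 6.27 CPM. CD274 was second lowest in DDR1 replicate 1, where the sum was above that of 2 controls. NF-kB targets were lower for 17 of 19, with a median of -0.91. At an unadjusted p under 0.05 stood 10 of the 19, against 4.17% of all genes, and the groups did not overlap for 4, IL1B, TRAF1, CSF2 and RELB, against 2.4% of all genes. Without the library labelled DDR1 replicate 1, 17 of 19 were lower, against 51.5% of all genes. In that setting 8 stood at an unadjusted p under 0.05 in edgeR, against 4.76% of all genes. Of 36 regulators of PD-L1, all tested, 16 were higher and 20 lower, with a median of -0.0035. At an unadjusted p under 0.05 in edgeR stood 3, EGFR, NFKB1 and IRF2, against 4.17% of all genes. The groups did not overlap for 2, EGFR and IRF2, against 2.4% of all genes. NFKB1, an NF-kB subunit, had 50.4 ± 7.46 CPM in DDR1 libraries and 69.3 ± 11.6 CPM in controls (SD, n = 4 each). EGFR, a growth factor receptor, had 531 ± 69.6 CPM in DDR1 libraries and 369 ± 29.2 CPM in controls (SD, n = 4 each; edgeR unadjusted p = 0.00831, adjusted p = 0.9999), and the interferon regulator IRF2 had 19.3 ± 3.99 and 27.2 ± 3.18 CPM in the DDR1 and control groups. CMTM6, which protects PD-L1 from breakdown, ranged from 79.1 to 158 CPM in DDR1 libraries and from 112 to 150 CPM in controls.

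Of 25 checkpoint receptors of lymphocytes and phagocytes 7 passed the filter and 18 stayed under 1 CPM in every library, with 2 of the 7 higher and 5 lower. These are human genes, so their levels do not measure the receptors of host cells, which are mouse cells. Of 14 other galectins 4 were tested and all 4 were higher, with a median log2 fold change of 0.19, and of 22 hypoxia and glycolysis genes 17 were higher and 5 lower, with a median of 0.18. The 13 mitochondrially encoded genes were higher for 12 and lower for 1, with a median of 0.21. When the library labelled DDR1 replicate 1 was left out, the median log2 fold change turned to -0.07 for the adenosine genes, -0.02 for the other B7 ligands and 0.07 for the other nectins, and it was -0.60 for the other TNF ligands, 0.06 for the other galectins and 0.11 for the hypoxia genes. Small RNAs made by RNA polymerase III and related transcripts were lower for 7 of 10, with a median of -0.39, and their sum ran from 72530 to 97560 CPM in DDR1 libraries and from 63750 to 153700 CPM in controls. Control replicate 4 had the highest of these sums and also the highest level for 6 members. RNA quality was not measured here, and its part in the members' values was not tested.

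Human lymphocyte markers were low, which cannot show how many host lymphocytes were present, since those are mouse cells. Single genes listed as markers of other cell types reached above the highest levels of CD274, PDCD1LG2 and LGALS9. T and NK cell markers summed to 1.45 to 3.39 CPM in DDR1 libraries and 2.21 to 6.79 CPM in controls, with 3 of 12 tested. B cell markers summed to 6.18 to 12.1 CPM in DDR1 libraries and 4.31 to 9.495 CPM in controls, nearly all of it PAX5. Myeloid markers summed to 50.3 to 270.0 CPM in DDR1 libraries and 22.3 to 151 CPM in controls, with S100A9, which epithelial cells also express, the most abundant by mean. Of these 15 markers 11 stayed under 1 CPM in every library. CD68, named after its values were seen, ranged from 18.1 to 46.2 CPM in DDR1 libraries and from 11.9 to 36.95 CPM in controls. Endothelial markers summed to 23.6 to 121 CPM in DDR1 libraries and 41.6 to 117 CPM in controls, with ENG the most abundant by mean (up to 60.4 CPM). Of these 8 markers 4 stayed under 1 CPM in every library. Markers of muscle, fat and red cells summed to 12.2 to 27.2 CPM in DDR1 libraries and 14.1 to 22.9 CPM in controls, most of it MYH11. Of these 10 markers 8 stayed under 1 CPM in every library. HBB was at 0 in every library. Whether reads on the listed genes came from tumour cells or from mouse cells was not tested, nor was the part of these genes in the members' values.

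**Figure D5:**
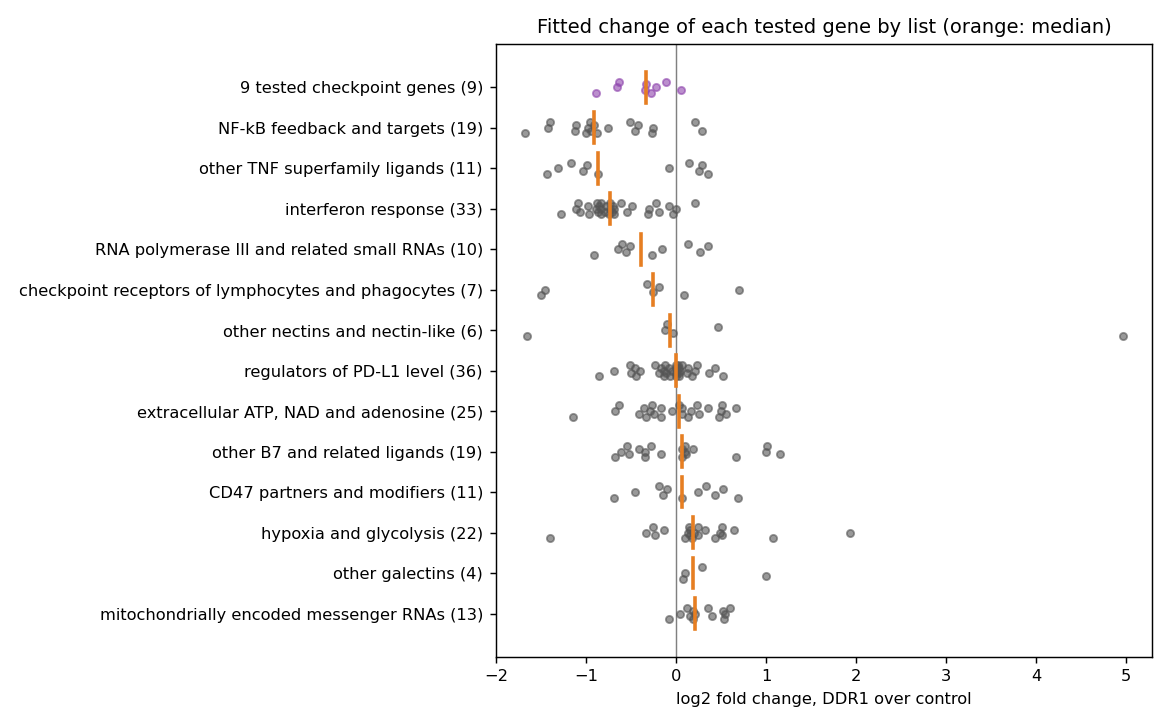
Log2 fold change of the DDR1 group over control for each tested gene (points, edgeR) of the 9 tested members and of 13 lists, with the number of tested genes in brackets and the median in orange. NF-kB targets, other TNF superfamily ligands and interferon response genes have the lowest medians, -0.91, -0.87 and -0.73, and the members have -0.33. The median of the TNF superfamily ligands is the value of TNFSF4, whose mean was 0.712 CPM.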

How the data were processed

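RNA was taken from whole T24 tumours and, per the labels' protocols, selected on poly-T beads and sequenced as paired ends; strand marking is not mentioned. RSEM 1.3.1, STAR 2.7.5, Trim Galore 0.6.4 and FastQC 0.11.9 are the tools, and GRCh38 the build, that appear in the submitters' processing notes. The authors deposited a table of expected counts per gene, in which 26.5% of the values above 0 were not whole, and these were rounded to whole numbers. The authors also deposited a log2 table of TMM-normalized values, used only for limma-trend; the 8 files of single libraries hold the same values and were not used. Genes were named with GENCODE release 29 (58039 of 58302 identifiers matched).

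Genes were kept by filterByExpr with a minimum count of 10 and scaled by TMM. DDR1 and control libraries, 8 in all, were compared by edgeR's quasi-likelihood test without covariates, with Benjamini-Hochberg adjustment over 18976 genes and a threshold of 0.05 (edgeR 4.0.16, limma 3.58.1, DESeq2 1.42.0, R 4.3.3, scipy 1.17.1). Log2 CPM used a prior count of 2. Every pair of libraries differed by more than counting error (chi-square over degrees of freedom at least 32.3). The 10 members and the 13 pathway and 7 cell type lists were chosen with earlier results of these data known. Beyond the members and DDR1, the rule named up to 4 genes with the smallest p per pathway list, the most abundant gene per cell type list, and the 3 genes most like NT5E, CD274 and CD276; other genes were named after their values were seen. Alternatives were 2 other scalings, 2 other filters, 3 other tools, leaving out each library or each pair of controls, summing libraries of a shared title prefix, leaving abundant small RNAs, mitochondrial genes and DDR1 out of library sizes, and protein-coding genes only.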

Additional observations from a re-analysis of the deposited data

Results flagged for a closer look

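Over the members, DDR1 and the genes named by the rule, 138 groups of 4 libraries were checked for 1 library far from the other 3, and 13 stood out. The check flags about 1 in 20 groups of independent, normally distributed values. Here it was run on CPM without a log, for chosen genes that share the same libraries, so the 13 cannot be set against that rate. Among the members, PDCD1LG2 had 6.004 CPM in control replicate 4, against 2.45 to 2.65 CPM in the other controls. CD276 had 24.6 CPM in the library labelled DDR1 replicate 1, against 75.3 to 81.5 CPM in the other DDR1 libraries. VTCN1 had 1.67 CPM in control replicate 2, against 0.0430 to 0.111 CPM in the other controls.

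In DDR1 libraries, S100A9 stood out at 171 CPM and NFKB1 at 61.5 CPM in replicate 2, CADM3 at 55.1 CPM and BNIP3L at 157 CPM in replicate 3, and NECTIN1 at 263 CPM in replicate 4. In controls, PAX5 stood out at 3.92 CPM, TRIM21 at 40.4 CPM and IL1B at 76.8 CPM in replicate 1, and LGALS1 at 133 CPM and MT-ATP8 at 142 CPM in replicate 2. PAX5, TRIM21 and LGALS1 were low in these libraries and the others high. The cause of these values was not tested.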

How the results depend on the processing

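Of 187 alternatives for single members 176 kept the direction. They include the exact permutation test of each tested member, which has no adjusted p and so could give no call. The others were refits, of which 0 gave a call. NT5E, CD274, PDCD1LG2, CD276 and PVR kept the direction in every alternative, and 11 alternatives for NECTIN2, CD47, LGALS9 and TNFSF9 turned it. Without the controls that have no lane the log2 fold change was 0.28 for NECTIN2, 0.053 for LGALS9 and -0.062 for TNFSF9, and after summing libraries that share a title prefix it was 0.013 for LGALS9 and -0.15 for TNFSF9. With 1 library left out it ran from -0.36 to 0.0039 for NECTIN2, from -0.28 to 0.045 for CD47, from -0.66 to -0.03 for LGALS9 and from -0.11 to 0.31 for TNFSF9. All tools and settings called 0 members, and DESeq2 alone called any gene (15). The number of members at an unadjusted p under 0.05 was 0 in edgeR, and 1 with no filter on low counts, DESeq2, limma-voom, limma-trend and without the lane 7 controls; it ran from 0 to 3 with 1 library left out. VTCN1 was tested only where the filter let it in, with log2 fold changes from -0.78 to 3.145 and no call. The number of pairs of members that passed by r was 2, and it ran from 0 to 3 with 1 library left out, where 7 libraries allow fewer orderings; CD274 with PDCD1LG2 lost its call in 4 of these 8 runs, with r from 0.969 to 0.990. Against the level of DDR1, 0 members passed in any setting, and r with 1 library left out ran from -0.66 to -0.0065 for NT5E, -0.62 to 0.16 for CD274, -0.60 to 0.12 for PDCD1LG2, -0.23 to 0.30 for NECTIN2, -0.21 to 0.22 for CD47 and -0.40 to 0.23 for VTCN1. With group means removed, an alternative chosen after seeing the data, r with DDR1 was 0.57 for NT5E, 0.16 for PDCD1LG2, 0.12 for PVR, 0.25 for NECTIN2 and 0.17 for CD47, which turned sign, and 0.80 for CD276, -0.62 for LGALS9 and 0.53 for TNFSF9. With the longest transcript as length, 6 of 10 members kept their place in the order of levels. No paired analysis was possible because replicate numbers follow accession order and pair nothing. The cause of these shifts was not tested. The counts over lists without DDR1 replicate 1 were also chosen after seeing the data. VTCN1 and PDCD1LG2 are limited by depth, at 0 to 47 and 12 to 117 counts per library.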
